A study of Mus musculus with 6 samples.

Results

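AMPA and kainate receptors are glutamate-gated ion channels, and 9 mouse genes encode their subunits. AMPA receptors carry most fast excitatory transmission in the brain. Gria1, Gria2, Gria3 and Gria4 encode the AMPA receptor subunits GluA1 to GluA4. Grik1, Grik2 and Grik3 encode the kainate receptor subunits GluK1 to GluK3, which can form channels by themselves, and Grik4 and Grik5 encode GluK4 and GluK5, which need one of those partners. The genes were taken by their symbols from tables that list 55341 genes, and all 9 passed the filter on low counts, so none was left out of a test.

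The RNA came from cultured cerebellar granule neurons (CGNs), the small excitatory neurons of the cerebellum. Granule neuron progenitors were purified on a Percoll gradient from cerebella of CD1-IGS mice at P6 to P8, and cytosine arabinoside, which stops dividing cells, was added to all cultures at DIV2 (second day in vitro). There were 3 libraries of cultures given the vehicle DMSO and 3 of cultures given GSK-126, which inhibits EZH2, the enzyme that places the repressive histone mark H3K27me3. The study's methods add the drug at DIV3 or, in other cultures, earlier, and collect cells at DIV5. The labels name DIV3, taken here as the day the drug was added, and cerebellar tissue. The dose is not given in the labels. No gene was altered in either group. A replicate was the neurons of pooled litters, so single animals and sexes are not resolved.

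In CGNs, AMPA receptors carry the fast synaptic current from mossy fibres. A receptor that contains edited GluA2 passes almost no calcium, because 1 codon in the channel pore, the Q/R site, is recoded from glutamine to arginine by the RNA-editing enzyme ADAR2. The auxiliary protein stargazin brings AMPA receptors to the CGN surface. Bergmann glia, the astroglia of the cerebellar cortex, are also known for AMPA receptors, built of GluA1 and GluA4 and lacking GluA2.

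The stretch of coding sequence around the Q/R site is shown because the subunits differ there in what they let through, and because the gene counts below sum edited and unedited transcripts. Each run is from the GENCODE M21 transcripts (build GRCm38), 5′ to 3′ on the coding strand, with the glutamine codon in capitals.
Gria1: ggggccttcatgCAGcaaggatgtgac
Gria2: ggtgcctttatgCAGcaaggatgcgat
Gria3: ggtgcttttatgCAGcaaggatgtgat
Gria4: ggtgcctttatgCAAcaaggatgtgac
Grik1: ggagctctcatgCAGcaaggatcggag
Grik2: ggagctctcatgCAGcaaggttctgag
Grik3: ggctccctgatgCAGcaaggatctgaa
Grik4: ggaggcttcatgCAGcaaggctccact
Grik5: ggtggcttcatgCAGcagggctcggag

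In Gria2 the codon is number 607 of the coding sequence and lies in exon 11 of 16, within chr3:80706899-80706925 on the minus strand. The genome encodes glutamine at the site in all 9 genes, by CAG in 8 of them and by CAA in Gria4. The windows of Gria1, Gria3 and Gria4 differ from that of Gria2 at 4, 2 and 3 of 27 bases, and those of the kainate genes at 7 or 8. In Grik1, Grik2 and Grik3 the window is split by an intron.

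The genes lie on 8 chromosomes. Gria2 is at chr3:80681450-80802835, Gria4 at chr9:4417896-4796234 and Grik2 at chr10:49094833-49788766, all on the minus strand of GRCm38. Their exons shared bases only with annotated small RNAs, at most 111 bases, in Gria2. RefSeq promoter windows of 300 bases (GRCm38.p6) were at hand for 6 of the 9 genes. They held 50 CG dinucleotides in Grik3, 42 in Grik4, 26 in Gria2 and in Grik2, 17 in Gria4 and 10 in Grik5, and the median over 32851 windows was 7, with quartiles of 3 and 20.

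Counts on genes ranged from 7407189 to 13092763 per library. Levels are given as CPM, a gene's counts scaled to a common library total, adjusted by TMM factors. The biological coefficient of variation was 9.74% when libraries were compared within a replicate number and 24.0% when they were not, both after the treatment was taken into account. Replicate 2 of both groups stood highest in the 8 granule neuron markers and lowest in the 6 astroglial ones, and replicate 1 of both groups highest in the astroglial ones. Granule neuron markers summed to between 3085 and 6090 CPM. The astroglial markers ranged from 2016 to 7117 CPM and 4 fibroblast markers from 4705 to 7013 CPM, so the cultures held RNA of other cell types too. Purkinje cell markers were low, at 10.8 to 26.4 CPM for 3 genes.

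The question put to these libraries was whether blocking EZH2 in CGNs after cell cycle exit changes the RNA of each receptor subunit. Gria2, Gria4 and Grik2 were lower with GSK-126, each by a modest amount and in every replicate pair, and the other 6 genes did not pass the test. In the edgeR quasi-likelihood fit that compared libraries within replicate numbers (the block), 3 of 9 genes were called lower and 0 higher at a Benjamini-Hochberg adjusted p under 0.05. Of all 16729 genes tested, 5.09% were called lower and 3.35% higher. The median log2 fold change was -0.04 over the 9 genes and -0.0056 over all genes tested. Without the block the same tool called 0% of all genes, with 665 at an unadjusted p under 0.05, and none of the 9 reached that unadjusted threshold. DESeq2 without the block called 20 genes higher and 1 lower, none of them a subunit gene, and with the block it called 3 of the 9 lower.

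Gria2, which encodes the calcium-limiting subunit, was at 340.5, 539.8 and 342 CPM in DMSO replicates 1, 2 and 3, and at 269, 425 and 309 CPM in the matching GSK-126 libraries. Replicate 2 was highest in both groups, and its GSK-126 library lay above DMSO replicates 1 and 3, so the groups overlapped. The 3 pairs differed by -0.34, -0.35 and -0.15 on the log2 scale. The fitted log2 fold change was -0.28 ± 0.07 (SE, n = 3 pairs; edgeR with the block, Benjamini-Hochberg adjusted p = 0.0173), a ratio of 0.824. Without the block it was -0.29 (edgeR adjusted p = 0.953). The call was lost without replicate 1 (edgeR adjusted p = 0.163) and without replicate 2 (edgeR adjusted p = 0.0825).

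Gria4 encodes GluA4, a subunit with fast kinetics that both CGNs and Bergmann glia are known to use. It was at 232, 264 and 191 CPM in DMSO and at 184, 228 and 156.5 CPM with GSK-126. Each treated library lay below its pair, by -0.34, -0.21 and -0.28 on the log2 scale, although the ranges of the groups overlapped. The fitted log2 fold change was -0.28 ± 0.07 (SE, n = 3 pairs; edgeR with the block, Benjamini-Hochberg adjusted p = 0.0189), a ratio of 0.825. It was -0.27 without the block (edgeR adjusted p = 0.953). The call was lost without replicate 1 (edgeR adjusted p = 0.223) and without replicate 3 (edgeR adjusted p = 0.0801).

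In Gria1, encoding GluA1, the spread lay between cultures. It was at 357, 96.5 and 162 CPM in DMSO and at 369, 91.9 and 150.4 CPM with GSK-126. Replicate 1 was highest and replicate 2 lowest in both groups, and the mean of a pair differed 3.85-fold between the highest and the lowest culture. Within pairs the log2 differences were 0.05, -0.07 and -0.10. The fitted log2 fold change was -0.04, with a 95% interval of -0.19 to 0.12 (edgeR with the block, Benjamini-Hochberg adjusted p = 0.822).

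Gria3, encoding GluA3, was the least abundant AMPA subunit RNA per kilobase of exon. Its levels were 73.9, 50.5 and 77.0 CPM in DMSO and 73.7, 56.1 and 68.7 CPM with GSK-126. The pairs went in different directions, and the fitted log2 fold change was -0.01, with a 95% interval of -0.20 to 0.19 (edgeR with the block, Benjamini-Hochberg adjusted p = 0.972). Its sign turned with upper-quartile factors and with total counts, to 0.03 and 0.02.

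**Figure D1:**
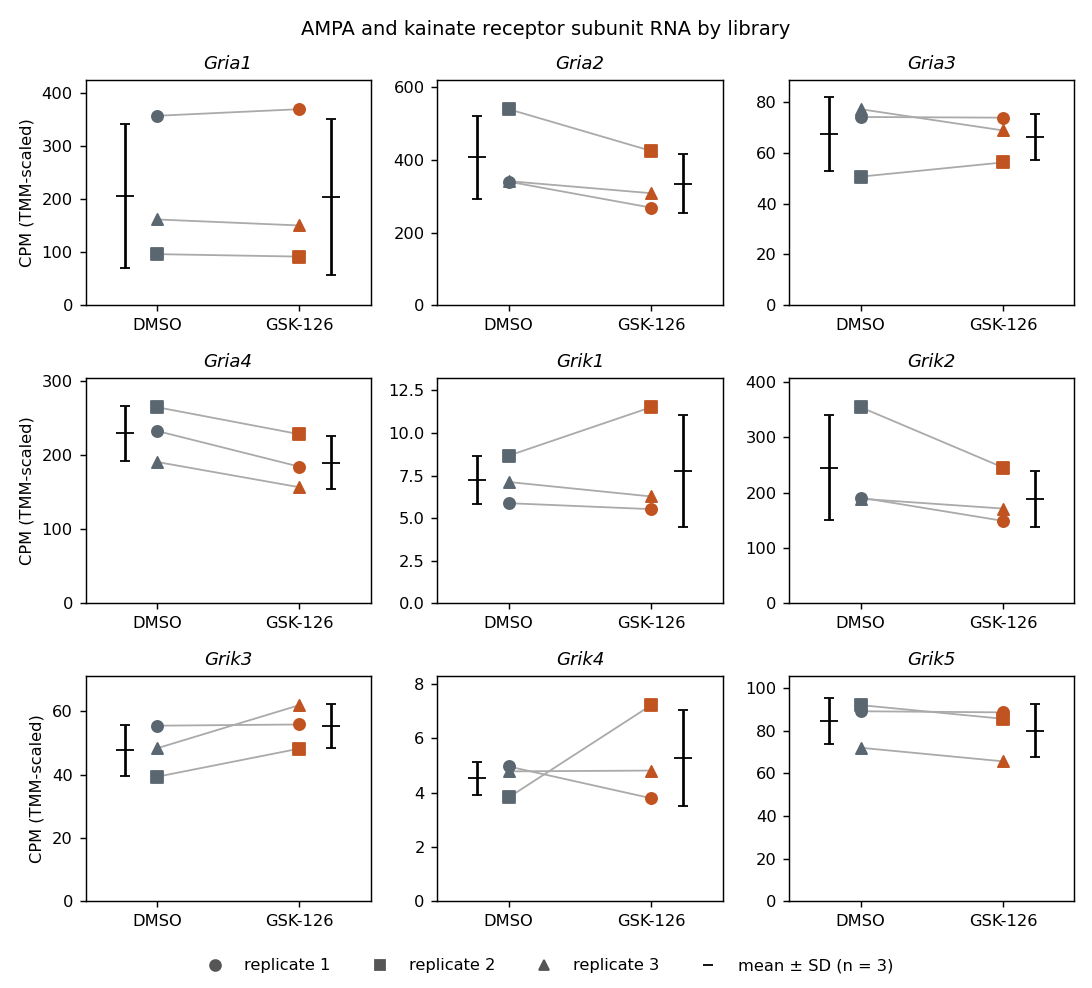
Level of each receptor subunit gene in every library, in TMM-scaled CPM on a linear axis that starts at 0, with symbols for replicates 1 to 3, grey lines joining the libraries of one replicate number, and black bars for the mean and SD of 3 libraries. The lines of Gria2, Gria4 and Grik2 all slope down, while Gria1 is spread from 91.9 to 369 CPM with nearly flat lines.

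Among the kainate genes, Grik2 was the only one called. It encodes GluK2, a channel-forming subunit that is the main partner of GluK5 in CGNs. Its levels were 191, 354 and 189 CPM in DMSO and 149, 245 and 171 CPM with GSK-126. Replicate 2 again stood above the others in both groups, and the pairs differed by -0.36, -0.53 and -0.14 on the log2 scale.

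The fitted log2 fold change of Grik2 was -0.35 ± 0.08 (SE, n = 3 pairs; edgeR with the block, Benjamini-Hochberg adjusted p = 0.00835), a ratio of 0.786, and Grik2 alone of the 9 also passed a threshold of 0.01. Without the block it was -0.38 (edgeR adjusted p = 0.953). The call held without replicate 1 or 3 and was lost without replicate 2, with a log2 fold change of -0.25 (edgeR adjusted p = 0.0897).

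Grik5, encoding the partner subunit GluK5, was steadier. It was at 89.1, 91.9 and 72.0 CPM in DMSO and at 88.5, 85.5 and 65.6 CPM with GSK-126. All 3 pairs were slightly lower, and the fitted log2 fold change was -0.08, with a 95% interval of -0.26 to 0.10 (edgeR with the block, Benjamini-Hochberg adjusted p = 0.638).

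Grik3, encoding GluK3, had the other sign. It was at 55.5, 39.3 and 48.3 CPM in DMSO and at 55.9, 48.2 and 62.0 CPM with GSK-126. The pairs differed by 0.01, 0.29 and 0.36 on the log2 scale, so pair 1 was nearly level. The fitted log2 fold change of 0.22 had a 95% interval of 0.0023 to 0.43, and it did not pass the test (edgeR with the block, Benjamini-Hochberg adjusted p = 0.228).

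Grik1 and Grik4, encoding GluK1 and GluK4, were rare. Grik1 was at 5.88, 8.67 and 7.13 CPM in DMSO and at 5.53, 11.5 and 6.28 CPM with GSK-126. Grik4 was at 4.96, 3.82 and 4.78 CPM in DMSO and at 3.79, 7.22 and 4.81 CPM with GSK-126. Behind these values stood 47 to 107 counts per library for Grik1 and 36 to 67 for Grik4, and both were highest in GSK-126 replicate 2.

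Their fitted log2 fold changes were imprecise. That of Grik1 was 0.07, with a 95% interval of -0.40 to 0.53 (edgeR with the block, Benjamini-Hochberg adjusted p = 0.901). That of Grik4 was 0.19, with a 95% interval of -0.42 to 0.80 (edgeR with the block, Benjamini-Hochberg adjusted p = 0.770). Without replicate 2 they were -0.13 and -0.19. With all libraries, the intervals of both genes took in -0.35, the log2 fold change of Grik2. Whether a change of that size could be called at these counts was not tested.

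Over the 9 genes, Gria2, Gria4, Grik2 and Grik5 were lower in all 3 pairs, where 22.8% of all genes tested were, and Grik3 was higher in all 3, where 19.5% were. No subunit gene had groups that did not overlap, whereas 9.44% of all genes did.

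**Figure D2:**
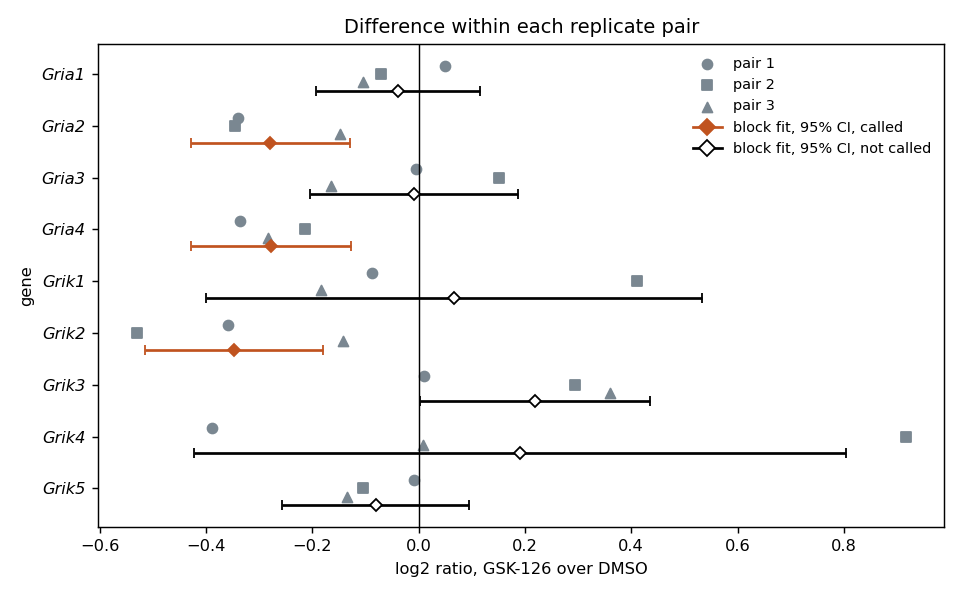
Log2 ratio of GSK-126 over DMSO (horizontal axis) for each subunit gene, with grey symbols for the 3 replicate pairs and diamonds with 95% intervals for the edgeR fit with the block, filled where the gene was called. The intervals of Gria2, Gria4 and Grik2 lie below 0, that of Grik3 begins just above it, and those of Grik1 and Grik4 are the widest.

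The differences between cultures ran beside the cell type markers for 2 genes, picked after the values were seen, and the 6 libraries come from only 3 replicate numbers. Gria1 put the 6 libraries in the same order as the summed astroglial markers, in which Gfap, Aqp4 and Slc1a3 have the highest CPM. Gria1 CPM was between 4.06% and 5.31% of that marker sum, a 1.31-fold range, while Gria1 itself varied 4.02-fold. Gria2 put the 6 libraries in the same order as the summed granule neuron markers, led by Zic1 and Reln. Gria2 CPM was between 7.49% and 8.90% of that sum, a 1.19-fold range, while Gria2 itself varied 2.01-fold.

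Some of these markers were called between the treatments. In the edgeR fit with the block, 5 of 8 granule neuron markers were called lower (Neurod1, Zic1, Rbfox3, Gabra6 and Etv1) and none higher, and the summed level was lower in every pair, from 3885, 6090 and 4564 CPM in DMSO to 3085, 4773 and 3542 CPM with GSK-126. The ratio of Gria2 to that sum was 8.37% ± 0.765 in DMSO and 8.78% ± 0.108 with GSK-126 (SD, n = 3). For Grik2 it was 4.96% ± 0.839 and 4.93% ± 0.178, and for Gria4 4.83% ± 0.998 and 5.06% ± 0.813. In bulk RNA, fewer cells of a type and less RNA per cell cannot be told apart.

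The astroglial sum was 6721, 2091 and 3722 CPM in DMSO and 7117, 2016 and 3705 CPM with GSK-126, with S100b and Gdf10 called higher, 2 of 6 genes, and none lower. These 2 had the lowest DMSO means of the 6. Of the markers not called, Gfap and Aldh1l1 were higher in every pair, and Aqp4 and Slc1a3 were lower in every pair. Of 5 GABAergic interneuron markers, Gad1, Gad2 and Slc32a1 were called lower. Their summed level was 201 to 232 CPM in DMSO and 147 to 184 CPM with GSK-126. Of the other lists, Mbp (1 of 8 oligodendrocyte lineage genes) and Col1a2 (1 of 4 fibroblast genes) were called higher, and Eomes, a marker of unipolar brush cells, lower. No Purkinje cell, microglial, endothelial or cycling progenitor marker that could be tested was called. No marker gene was at 0 in every library, and none was called without the block. The part of these cell type levels in the differences of Gria2, Gria4 and Grik2 was not tested.

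**Figure D3:**
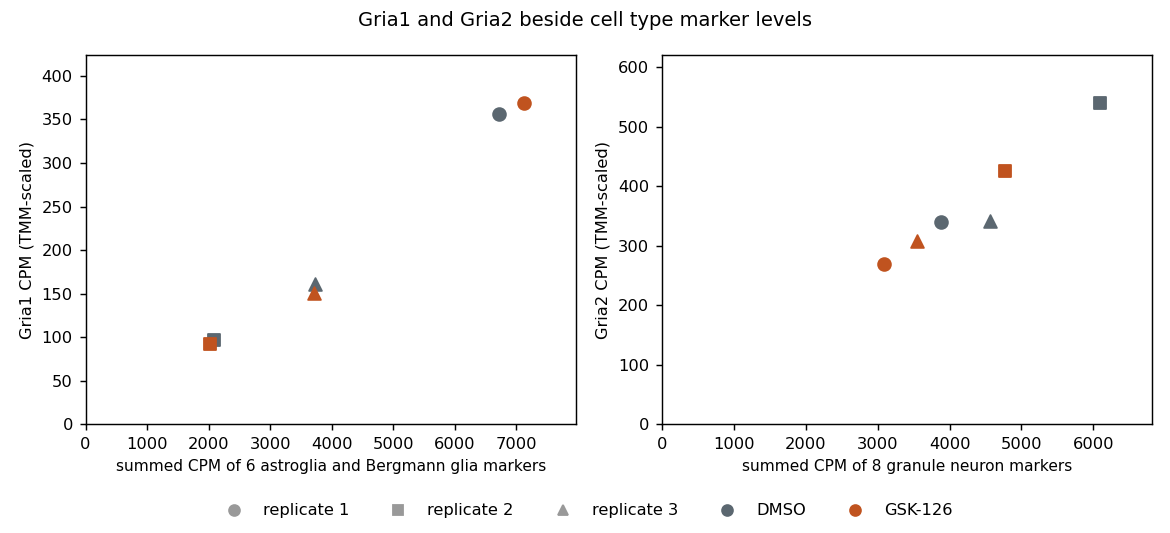
Gria1 CPM against the summed CPM of 6 astroglial markers (left) and Gria2 CPM against the summed CPM of 8 granule neuron markers (right) in the 6 libraries, with symbols for replicates and colours for treatment, all axes linear from 0. In both panels the libraries rise together, the replicate numbers separate in the left panel, and each GSK-126 library lies to the lower left of its DMSO partner in the right one.

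Levels of different genes were compared as CPM per kilobase of annotated exon. In DMSO the order was Gria4 at 36.3 ± 5.87, Gria1 at 33.9 ± 22.4, Gria2 at 26.2 ± 7.38, Grik2 at 18.5 ± 7.16, Grik5 at 16.3 ± 2.09, Gria3 at 6.81 ± 1.47, Grik3 at 5.32 ± 0.901, Grik1 at 1.08 ± 0.208 and Grik4 at 0.758 ± 0.103 CPM per kb (SD, n = 3). Neighbours from Gria4 down to Grik5 overlapped in their DMSO libraries, and so did Gria3 and Grik3. Grik5 lay above Gria3, Grik3 above Grik1 and Grik1 above Grik4 with no overlap. Gria2 has long annotated ends. By the longest coding transcript it stood at 39.3 ± 11.1, above Gria1 at 37.0 ± 24.4 and below Gria4 at 42.1 ± 6.80 CPM per kb. By that length Gria3 stood at 12.9 ± 2.79 and Grik3 at 5.32 ± 0.901 CPM per kb, further apart than by exon length.

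The composition of the AMPA pool depended on the culture. Gria1 made up 47.1%, 16.3% and 30.8% of AMPA subunit RNA per kb in DMSO and 53.1%, 18.0% and 32.5% with GSK-126. That share was higher in each treated library than in its pair, and so was the Gria3 share. The Gria4 share was lower in each treated library, by little in replicate 2, at 42.90% in DMSO and 42.84% with GSK-126. The Gria2 share was 17.5%, 35.5% and 25.3% in DMSO and 15.03%, 32.4% and 25.9% with GSK-126. Its means were 26.1% ± 9.04 and 24.5% ± 8.77 (SD, n = 3), and the share was lower in 2 of 3 pairs. The two-sided exact permutation test gave p = 0.8, but with 3 libraries against 3 it cannot give a p under 0.1, and it does not use the pairs, so no call was possible.

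In the kainate pool, Grik2 held 36.5%, 52.6% and 40.2% of subunit RNA per kb in DMSO and 31.2%, 42.7% and 37.7% with GSK-126, lower in each pair. The obligate partners Grik4 and Grik5 together held 41.2% ± 4.73 in DMSO and 43.2% ± 5.31 with GSK-126 (SD, n = 3), higher in 2 of 3 pairs (two-sided exact permutation test, p = 0.7, in the same design with no call possible). Grik3 held 13.2% ± 3.93 and 16.6% ± 3.92. The summed AMPA level was 103 ± 19.8 CPM per kb in DMSO and 92.0 ± 20.4 with GSK-126, and the summed kainate level 41.9 ± 7.98 and 37.9 ± 4.82. Both sums were lower in all 3 pairs, and their groups overlapped. Two-sided exact permutation tests gave p = 0.5 for the AMPA sum and p = 0.6 for the kainate sum, again with no call possible.

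**Figure D4:**
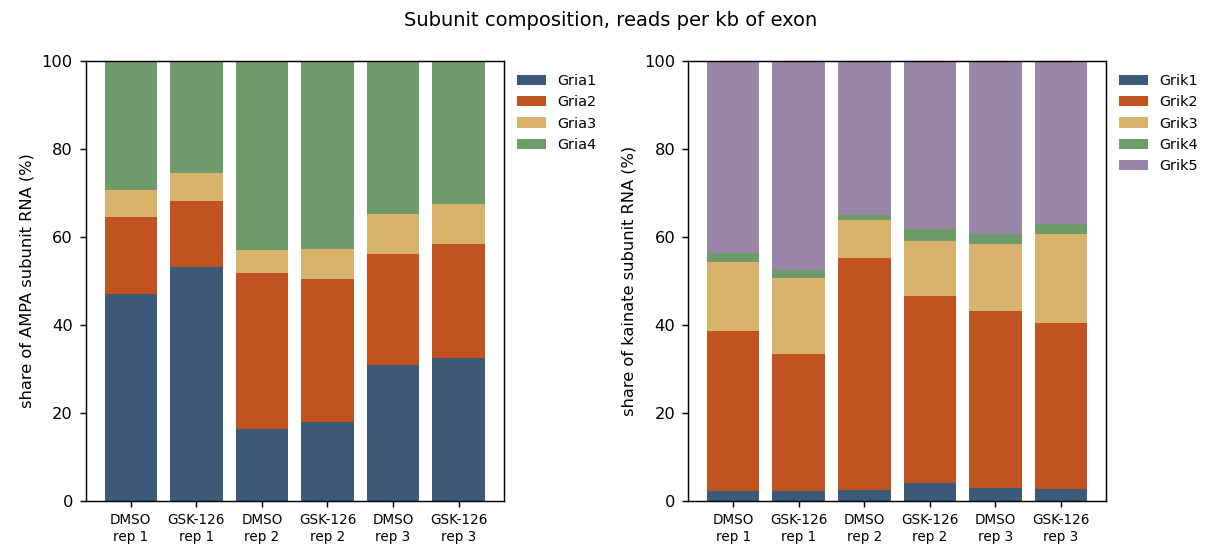
Share of each gene in the AMPA (left) and kainate (right) subunit RNA of every library, in percent of CPM per kb of exon, with the libraries of one replicate number side by side. Gria1 takes 16.3% of the AMPA bar in DMSO replicate 2 and 47.1% in DMSO replicate 1, and Grik2 is smaller in each GSK-126 bar than in its DMSO partner.

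Genes were also ranked by how closely their levels over the 6 libraries followed each receptor sum in CPM, not divided by exon length. The measure was the root mean square difference of centred log2 CPM. Nearest to the AMPA sum were Meis1 (0.0197), Apmap (0.0407), Smpd1 (0.0423), Bora (0.0425) and Anks6 (0.0488). Nearest to the kainate sum were Ccdc66 (0.0362), Gpcpd1 (0.0370), Ppp3cb (0.0401), Ccnl1 (0.0409) and Spop (0.0412). None of the 10 was itself called (edgeR with the block, Benjamini-Hochberg adjusted p from 0.0569 to 0.595).

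The proteins that assemble, move, anchor and edit these receptors were followed in a list of 36 genes, of which 33 passed the filter. In the edgeR fit with the block, 7 were called lower and 0 higher, where 5.09% of all genes tested were called lower and 3.35% higher. At an unadjusted p under 0.05, 12 were lower and 1 higher, against 2017 lower and 1578 higher of the 16729 genes. The list was written with earlier results of these data known, so these counts are not an independent test of it. DESeq2 with the block also called 7 lower and 0 higher. The median log2 fold change of the 33 was -0.08. Without the block edgeR called none of them, with 3 at an unadjusted p under 0.05.

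Of 13 AMPA auxiliary subunit genes tested, 2 were called lower. Cacng2, which encodes stargazin, was at 84.3, 118.5 and 106 CPM in DMSO and at 62.8, 92.4 and 65.1 CPM with GSK-126. It was lower in all 3 pairs, with a log2 fold change of -0.49 ± 0.09 (SE; edgeR with the block, Benjamini-Hochberg adjusted p = 0.00112). It shares 323 bases of exon with the antisense gene A730060N03Rik, and the strand setting of the counting is not given in the sources used here. Shisa6, which encodes a protein that limits AMPA receptor desensitization, went from 41.4 ± 5.42 to 29.9 ± 2.63 CPM (SD, n = 3). Its DMSO libraries, at 35.6, 42.0 and 46.4 CPM, all lay above its GSK-126 libraries, at 27.6, 32.7 and 29.2 CPM. The log2 fold change was -0.46 ± 0.12 (SE; edgeR with the block, Benjamini-Hochberg adjusted p = 0.0151). The call was lost without replicate 3 (edgeR adjusted p = 0.127). Of the 33 companion genes tested, 3 (Shisa6, Cpt1c and Grip2) had groups that did not overlap, where 9.44% of all genes tested did. Cpt1c and Grip2 were not called by the edgeR fit with the block.

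The auxiliary gene with the highest mean CPM, Cacng4, was at 154, 72.0 and 115 CPM in DMSO and at 170, 74.3 and 89.6 CPM with GSK-126 (edgeR with the block, Benjamini-Hochberg adjusted p = 0.808). Its order of cultures was that of Gria1, with replicate 1 highest and replicate 2 lowest in both groups. Cacng5, chosen here after its values were seen, had that order too, at 118, 38.2 and 61.3 CPM in DMSO and 126.4, 39.3 and 72.4 CPM with GSK-126. Both encode members of the stargazin family. Cacng7 and Cacng8, of the same family, were listed at 0 in every library, so no level is given for them.

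Of 3 kainate auxiliary and partner genes tested, Neto2 was called lower and also had the highest mean CPM. It encodes a membrane protein that binds kainate receptors and slows their desensitization. It was at 94.4, 212.5 and 125.7 CPM in DMSO and at 74.4, 143.5 and 105 CPM with GSK-126, so replicate 2 was highest in both groups, as for Grik2. The log2 fold change was -0.39 ± 0.08 (SE; edgeR with the block, Benjamini-Hochberg adjusted p = 0.00385), and without replicate 2 it was -0.30 (edgeR adjusted p = 0.0552).

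Of 6 assembly genes, Frrs1l was called lower and had the strongest call of the 36. Its protein takes part in building AMPA receptors in the endoplasmic reticulum. It was at 193, 461 and 272 CPM in DMSO and at 127, 240.3 and 200.5 CPM with GSK-126, the highest of its list. The log2 fold change was -0.66 ± 0.09 (SE; edgeR with the block, Benjamini-Hochberg adjusted p = 3.69e-05), and it was called with each replicate number left out in turn.

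Of 8 trafficking and scaffold genes, 3 were called lower. Nsf, the ATPase that takes apart SNARE complexes and binds the GluA2 tail, went from 266 ± 65.9 to 193 ± 45.1 CPM (SD, n = 3; log2 fold change -0.46, edgeR with the block, Benjamini-Hochberg adjusted p = 0.000378). Dlg4, which encodes the postsynaptic scaffold PSD-95, went from 232 ± 41.5 to 173 ± 36.8 CPM (SD, n = 3; log2 fold change -0.42, edgeR with the block, Benjamini-Hochberg adjusted p = 0.000786). Epb41l1, which encodes the GluA1-binding protein 4.1N, went from 502 ± 162 to 374.5 ± 110 CPM (SD, n = 3; log2 fold change -0.41, edgeR with the block, Benjamini-Hochberg adjusted p = 0.00053). These 3 genes were lower in every pair, and Epb41l1 had the highest mean CPM of the list. None of the 3 RNA-editing genes was called. Adarb1, which encodes ADAR2, the enzyme of the Gria2 Q/R site, was at 262.5, 388 and 303 CPM in DMSO and at 233, 376 and 250 CPM with GSK-126 (log2 fold change -0.16, edgeR with the block, Benjamini-Hochberg adjusted p = 0.187).

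**Figure D5:**
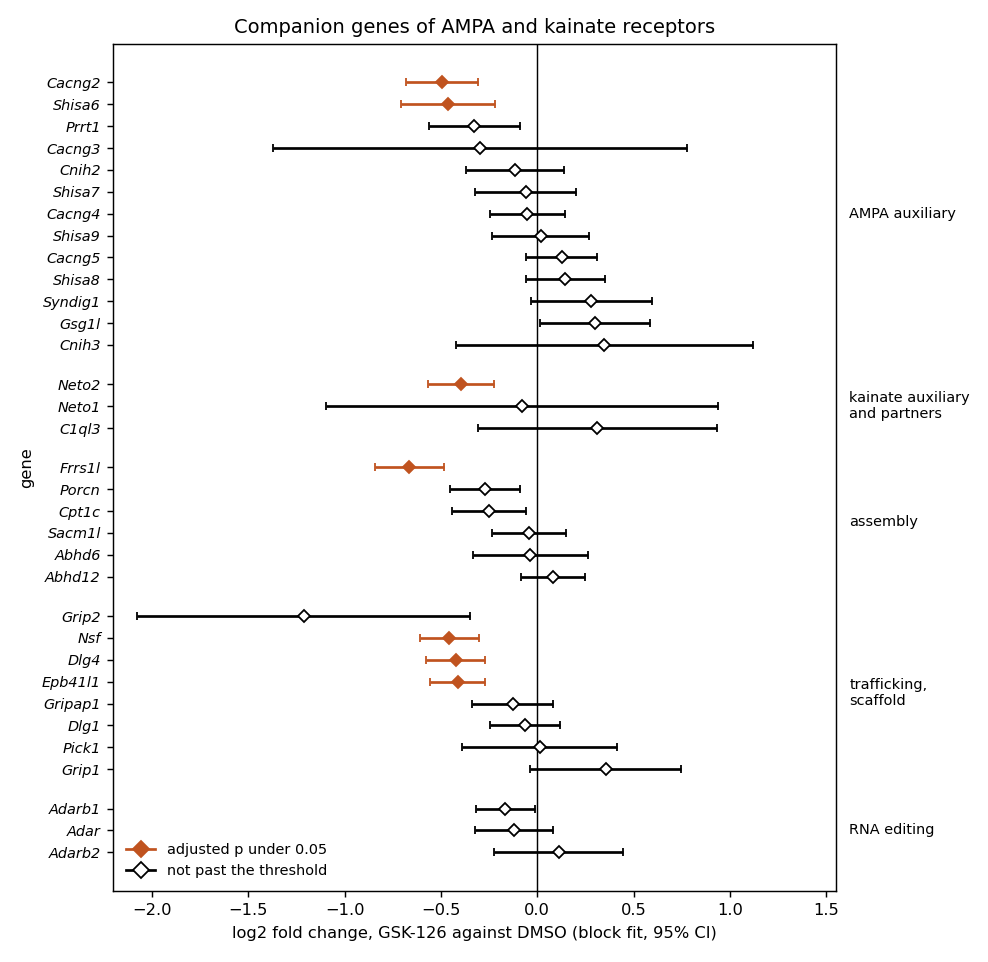
Log2 fold change of GSK-126 against DMSO with its 95% interval (edgeR with the block) for the 33 companion genes tested, grouped by role, filled where the adjusted p was under 0.05. The 7 filled points, from Frrs1l at -0.66 to Neto2 at -0.39, are all left of 0, and the wide intervals belong to genes with few counts.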

How the data were processed

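RNA-seq (poly-A RNA, paired reads) was analysed from 3 DMSO and 3 GSK-126 libraries of mouse CGN cultures, grouped by the sample labels. The authors trimmed reads with Trimmomatic 0.38, aligned them with STAR 2.7.2b to GRCm38 and counted reads on exons with HTSeq, and they deposited raw counts per gene. The lines that name no gene, 58.7% to 60.7% of the listed reads, were left out. Per-sample columns left unused numbered 0. The study's methods name a Gencode annotation of GRCm38.p4, while its release and the strand setting are not given in the sources used here. The 55341 symbols of the tables are exactly those of GENCODE M21, so M21 gave coordinates and exon lengths, which may differ from the annotation the authors counted with. Promoter windows are RefSeq's, on GRCm38.p6.

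Counts kept by filterByExpr were tested in R 4.3.3 with edgeR 4.0.16 (TMM factors, quasi-likelihood test, Benjamini-Hochberg adjustment over all genes tested, threshold 0.05), with the replicate number as a block. DESeq2 1.42.0 was an alternative. The scripts were tested on simulated counts, with changes placed in genes that were not rare. The fit with the block called 13.6% of simulated log2 changes of 0.3, 53.7% of those of 0.5 and 97% of those of 1. A gene that was not called may therefore still have changed by a modest amount. The numbers pair the libraries: deviations from the group means correlated across genes by 0.487 to 0.634 between libraries of the same number. Between others the correlations ran from -0.49 to 0.0064. Centring on the group means pushes these down once the same-number values are positive, so they are no separate evidence of pairing. The labels do not say what a number shares. Within each group no library was a copy of another, the chi-square per degree of freedom being 12.9 or more. Libraries of different groups were not compared in this way. Pair differences are log2 ratios of CPM.

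The receptor genes, the companion and marker lists and the use of the block were chosen with earlier results of these data known. All 9 receptor genes are named, with every called gene (at most 5) and the most abundant gene of each companion list. The 5 genes nearest to each receptor sum in CPM, without length correction, are named too. Intervals cover 95% by the fit's own degrees of freedom. The intervals take in counting error and the spread left after the block, and for genes with few counts the counting error is a large part.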

Additional observations from a re-analysis of the deposited data

How the results depend on the processing

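With no replicate block, the log2 fold changes of Gria2, Gria4 and Grik2 were -0.29, -0.27 and -0.38 in edgeR and -0.28, -0.27 and -0.37 in DESeq2, and none passed the threshold. The numbers pair the libraries, and the block decides these calls: without the block the count of genes called lower was 0 of the 9 receptor genes, 0 of the companion genes and 0 of all genes in edgeR, with 0 higher, and 0, 0 and 1 lower with 20 higher in DESeq2. DESeq2 with the block called 372 genes higher and 627 lower, against 561 and 851 in edgeR. At an adjusted p under 0.01, edgeR with the block called 242 higher and 474 lower, and 1 receptor gene. Upper-quartile factors gave 727 higher and 698 lower, and total counts 714 and 707, so the split of higher against lower depends on the scaling, while 3 receptor genes were called lower under each scaling and each filter. Gria3 turned to 0.0252 with upper-quartile factors, 0.0245 with total counts, 0.0061 with no filter and 0.0080 with at least 10 counts in every library. With no filter, Grip2 joined the called companion genes.

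Leaving out 1 replicate number left 1 to 2 receptor genes called lower, 6 to 7 companion genes, 337 to 558 genes higher and 496 to 719 lower. The log2 fold change then ranged from -0.34 to -0.23 for Gria2, -0.31 to -0.23 for Gria4, -0.44 to -0.25 for Grik2, -0.073 to -0.005 for Gria1, -0.081 to 0.071 for Gria3, -0.13 to 0.18 for Grik1, 0.15 to 0.34 for Grik3, -0.19 to 0.49 for Grik4 and -0.10 to -0.055 for Grik5. Leaving out 1 library with no block called 0 genes in any set, and the ranges were -0.48 to -0.027 for Gria2, -0.41 to -0.15 for Gria4, -0.59 to -0.0089 for Grik2, -0.74 to 0.68 for Gria1, -0.19 to 0.10 for Gria3, -0.28 to 0.32 for Grik1, 0.096 to 0.35 for Grik3, -0.063 to 0.43 for Grik4 and -0.18 to 0.047 for Grik5. In these unblocked fits the smallest differences of Gria2 and Grik2 were those without DMSO replicate 2. The causes of these shifts were not tested. The subunit shares and sums kept their direction under the length and scaling alternatives (the length of the longest coding transcript was chosen after seeing the data) and with 1 replicate number left out, but their size moved: the treated minus control difference then ranged from -2.79 to -0.92 percentage points for the Gria2 share (-1.66 with all libraries), 0.71 to 4.14 for the Grik4 and Grik5 share (2.04), -11.8 to -10.2 CPM per kb for the AMPA sum (-11.3) and -5.48 to -2.33 for the kainate sum (-4.04). Paired sign-flip tests gave p = 0.5 for both shares, where an exact test on 3 pairs cannot go under 0.25. The 36 to 107 counts per library of Grik1 and Grik4 limit what can be seen there.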
